A study of Homo sapiens with 6 samples.

Results

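The control MDA-MB-231 cells of a knockdown study are described here from both of their RNA-seq libraries, which are 2 of the 6 libraries of the series. MDA-MB-231 is an established human line derived from a pleural effusion of breast adenocarcinoma, and it is a standard model of triple-negative disease, in which the estrogen receptor, the progesterone receptor and amplified ERBB2 are all lacking. The other 4 libraries came from a pair of colonies in which the RNA helicase DDX18 was knocked down, and they are not analysed here beyond a check of the labels. The controls carry the genotype label Control, with no agent, dose or time, and the vector or guide they received is not given in the sources used here. The libraries were chosen by their label alone. Genes were then ranked by the mean of both control libraries, and 36932 genes with a symbol of their own were ranked of 52142 rows in the table.

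Breast epithelium has an inner layer of luminal cells and an outer layer of basal and myoepithelial cells, each with its own keratins, adhesion proteins and transcription factors. Carcinoma cells can lose junctions and gain filament, matrix and motility genes of mesenchymal cells, a shift known as the epithelial to mesenchymal transition and driven by factors of the SNAI, ZEB and TWIST families. MDA-MB-231 is widely used as a line with a mesenchymal phenotype and a mutant RAS pathway.

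DDX18 stood at 78.8 and 91.7 CPM in the controls and between 14.04 and 17.6 CPM in the 4 knockdown libraries, so that all 6 libraries matched their labels on this gene. CPM, the deposited unit, gives the reads of a gene scaled to the size of its library. The listed rows summed to 976795 and 975743 CPM in replicates 1 and 2, and the total used for scaling is not given in the sources used here. The deposited values were whole multiples of 0.102 CPM in replicate 1 and 0.1001 CPM in replicate 2. This corresponds to 9561782 and 9748680 reads over the listed rows. A gene is called expressed here when it reached 1 CPM in each control, about 10 reads, and a level per kilobase (CPM per kb) is its CPM divided by the length of its merged exons. Whether both replicates came from separate cultures is not stated in the labels, and the spread between them may be technical.

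The controls were close to each other. Over the 13767 genes whose mean was 1 CPM or more, the median absolute difference was 0.13 on the log2(CPM + 1) scale, and 407 genes (2.96%) differed by 1.5-fold or more, 155 of them higher and 252 lower in replicate 2. Of the 8102 genes with a mean of 20 CPM or more, 4 passed that fold: VWA1, RAD51AP1, PORCN and VASN. VWA1, an extracellular matrix protein, stood at 62.9 and 40.5 CPM, a log2 difference of -0.62 for replicate 2 minus replicate 1. RAD51AP1, a DNA repair protein, stood at 17.98 and 28.02 CPM, the opposite direction, with a log2 difference of 0.61. PORCN, which acylates WNT ligands, stood at 37.5 and 24.2 CPM. VASN, a transmembrane protein that binds TGF-beta, stood at 24.9 and 16.1 CPM. Next in size were MUC1, NOL4L, HEATR3, BTN3A3, MDGA1 and APCDD1L, and the epithelial mucin MUC1 stood at 31.98 and 21.1 CPM. Among the 808 genes of the lists with a mean of 1 CPM or more, 24 (2.97%) passed the fold, against 2.96% of all genes compared. With 1 library on each side no test was made. Over 10027 genes of at least 10 CPM, with CPM converted to implied reads, the squared differences were on average 3.803 times what counting reads alone gives, so the libraries differed by more than sampling noise.

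**Figure D1:**
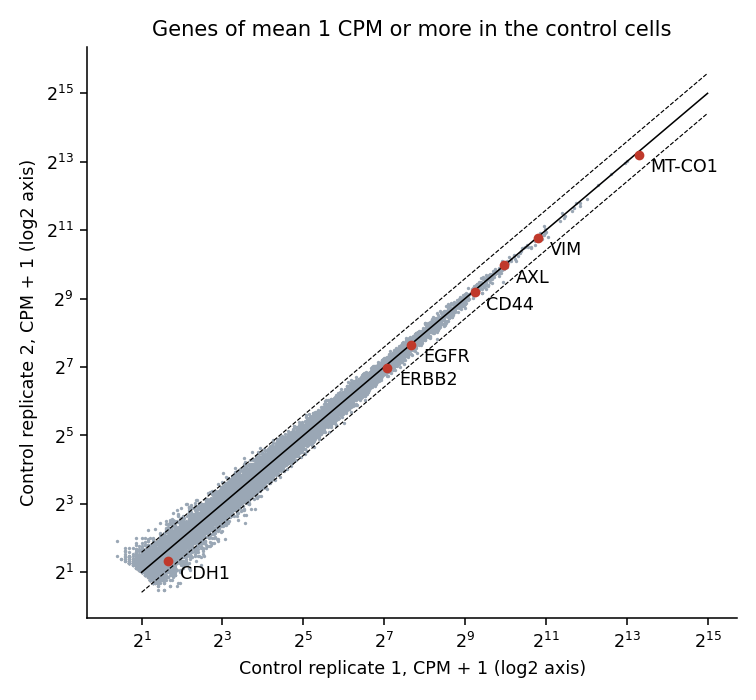
Level of each gene of mean 1 CPM or more in control replicate 1 (x axis) and control replicate 2 (y axis), as CPM + 1 on log2 axes, with equality as a solid line, 1.5-fold as dashed lines, and 7 genes named in red. The named genes lie within the dashed lines, from CDH1 at 2.15 and 1.501 CPM to MT-CO1 at 10087 and 9408 CPM, and the scatter widens toward low levels.

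Of the 36932 genes, 13468 (36.5%) were expressed, 16922 were listed at 0 in both controls, and 6542 lay between. Of 18898 protein coding genes, 12228 (64.7%) were expressed and 3870 were listed at 0. Genes used by every cell were among those listed at 0 (such as EEF1G, HSPA1A and HSPA1B), so a 0 in this table can be a gene to which no read was assigned. EEF1G shares 99.9% of its exonic bases with another annotated gene on the same strand. Levels above 1000 CPM in both controls were reached by 52 genes and levels above 100 CPM by 2194. The 10 most abundant genes held 5.66% ± 0.061 of all CPM (SD, n = 2 libraries), the top 100 held 16.9% ± 0.177, and the top 1000 held 46.4% ± 0.125.

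The most abundant transcripts came from the mitochondrial genome, the translation machinery, the cytoskeleton and glycolysis. Of the 25 genes of highest mean CPM, 8 are encoded in mitochondrial DNA, and the 37 genes of that genome held 4.72% ± 0.010 of all CPM. MT-CO1, the catalytic subunit of cytochrome c oxidase, stood first at 10087 and 9408 CPM. MT-RNR2, the large mitochondrial ribosomal RNA, stood at 7929.8 and 7998 CPM. MT-CO2, another oxidase subunit, stood at 6278 and 6385 CPM. The remaining mitochondrial genes in the first 25 were MT-ND4, MT-ND5 and MT-ND2 of complex I, MT-ATP6 of the ATP synthase and MT-CO3. Lengths change the order: per kilobase MT-CO2 was first at 9256 ± 110.1 CPM per kb and MT-CO1 second at 6321 ± 312 CPM per kb (SD, n = 2). Only 14 of the first 25 genes by CPM were also in the first 25 by CPM per kb, and the lowest of the 25 was FN1, at place 253 per kilobase. The 69-base transfer RNA gene MT-TS1 was seventh per kilobase from 188 and 218 CPM, a value that a very short length makes large. MT-ND6, MT-ND3 and TMSB10 also entered the first 10 per kilobase.

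EEF1A1, which carries aminoacyl-tRNA to the ribosome, was second by CPM at 8186 and 8380.1 CPM. The 79 cytosolic ribosomal protein genes together held 3.58% ± 0.080 of all CPM, and 77 of them were expressed. The 22 translation factors held 1.803% ± 0.034, and 21 of them were expressed, EEF1G being listed at 0. Glycolysis placed 4 enzymes in the first 25. ENO1, the enolase, stood at 3682 and 3565 CPM. PKM, the pyruvate kinase, stood at 2826 and 2703 CPM. GAPDH stood at 2589 and 2470.0 CPM. LDHA, which turns pyruvate into lactate, stood at 2024 and 2105 CPM, the only one of the 4 higher in replicate 2. All 19 genes of the glycolysis list were expressed, with 1.77% ± 0.029 of all CPM. HSP90AB1, a cytosolic chaperone, stood at 1973 and 2216 CPM, lower in replicate 1.

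Structural genes filled most of the rest of the first 25. AHNAK, a giant scaffold protein under the membrane, stood at 4144 and 3849 CPM. PLEC, the linker of intermediate filaments, stood at 3680.3 and 3357 CPM. Both were lower in replicate 2. ACTB, a cytoplasmic actin, stood at 3453 and 3553 CPM. ACTG1, the other one, stood at 1987 and 1849 CPM. These cytoskeletal genes include proteins that crosslink or sequester actin. FLNA, an actin crosslinker, stood at 3187 and 3005 CPM. TMSB4X, a peptide that holds actin monomers, stood at 2019 and 1953 CPM. Long genes gather more reads, and per kilobase FLNA reached 292 ± 12.1 CPM per kb against 1165 ± 27.4 CPM per kb for TMSB4X. The 28 genes of the actin list were all expressed and held 2.57% ± 0.019 of all CPM. FN1, the matrix glycoprotein fibronectin, stood at 2111 and 1790.5 CPM. S100A6, a calcium-binding protein, stood at 1926 and 1697 CPM. APLP2, an amyloid precursor homologue, stood at 2048 and 1966 CPM. VIM was 25th.

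**Figure D2:**
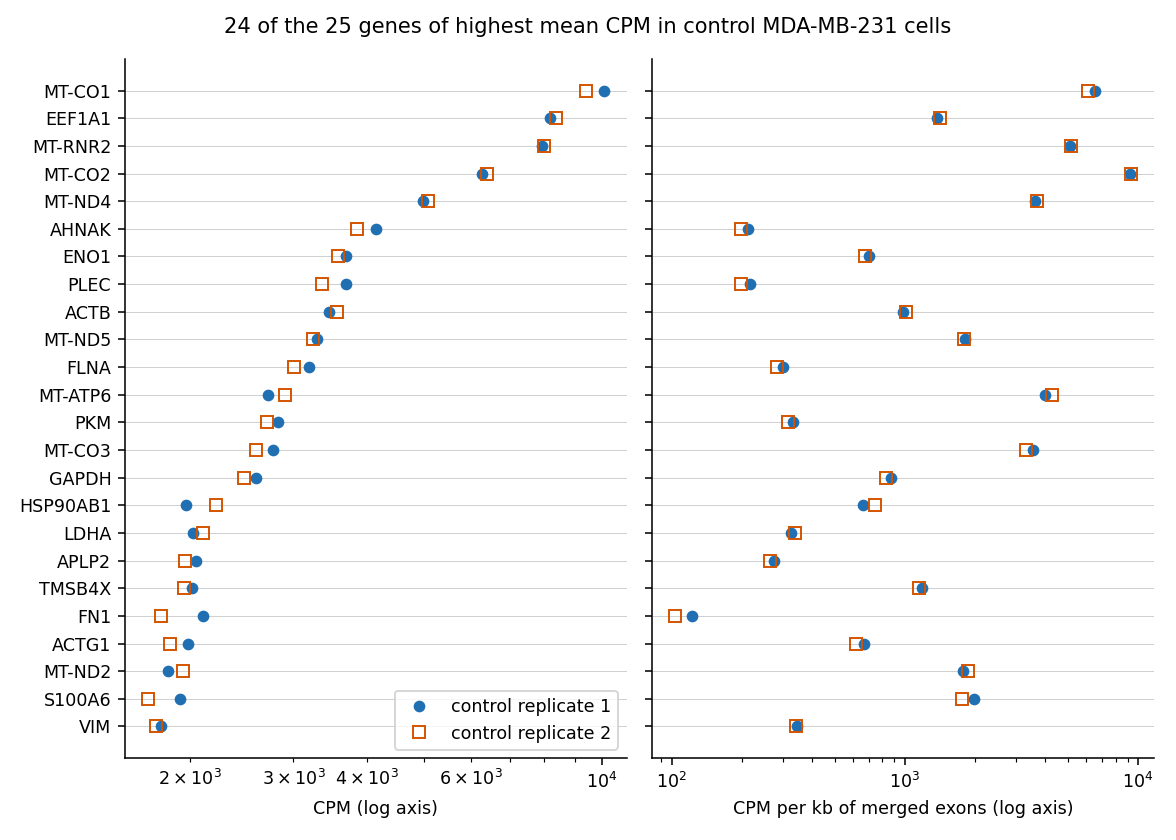
Level of 24 of the 25 genes of highest mean CPM in each control library, as CPM (left) and as CPM per kb of merged exons (right), both on log axes. Circles are replicate 1 and squares are replicate 2; the long genes AHNAK, PLEC and FN1 fall to the low end on the right, and the mitochondrial genes stay at the high end.

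Start-site sequences are given because the abundant translation genes share one. Translation genes are known to begin at a C followed by a run of C and T, the terminal oligopyrimidine tract through which growth signals set their translation. Below are 30 bases around the start (20 before and 10 from it, gene strand, RefSeq on GRCh38.p14), with the run in capitals where the start is a C followed by at least 4 C or T. The first 4 are translation genes and the last 3 are abundant genes of other roles.
EEF1A1: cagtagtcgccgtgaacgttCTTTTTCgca
EEF2: tgagtgttgacgtcagcgttCTCTTCCgcc
RPLP0: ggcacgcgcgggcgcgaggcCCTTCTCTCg
RPS18: gatatcgcgtcacttccgctCTCTCTTCCa
VIM: tcccggtgcaatcgtgatctgggaggccca
GAPDH: tgcgcagcgggtgcatccctgtccggatgc
TMSB10: ggggcgggcgccgctcttttgtttcttgct
The windows lie at chr6:73521023-73521052 (minus strand) for EEF1A1, chr19:3985454-3985483 (minus) for EEF2, chr12:120201102-120201131 (minus) for RPLP0, chr6:33272055-33272084 (plus) for RPS18, chr10:17228221-17228250 (plus) for VIM, chr12:6535244-6535273 (plus) for GAPDH and chr2:84905636-84905665 (plus) for TMSB10. Among 10910 protein coding genes with a single annotated start window, 4.74% had such a start, against 41 of 53 ribosomal protein genes (77.4%) and 14 of the 100 most abundant among them. The share was 5.48% of the other expressed genes and 3.04% of those listed at 0. A match is a description of the letters at the annotated start.

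The CpG content of the annotated windows, 250 bases before to 50 after the start, was compared by level among the same 10910 genes, without a test. The 100 most abundant are here the highest by mean CPM among these, so genes without a single window, such as MT-CO1 and ACTB, are not included. The median ratio of observed to expected CpG was 0.907 in the 100 most abundant genes, 0.856 in the other 6864 expressed genes, 0.479 in 1576 genes below 1 CPM in a control and 0.297 in 2370 genes listed at 0 in both. The classes overlap, with quartiles of 0.731 and 0.963 for the other expressed genes and 0.145 and 0.663 for those listed at 0. The letters TATAAA, a common form of the TATA box, searched on the gene strand from 40 to 16 bases before the start, were in 4.36% of all windows, in 10 of the 100 most abundant, 1.78% of the other expressed genes and 10.3% of those listed at 0. On either strand the shares were 4.85%, 12.0%, 2.03% and 11.1%. Examples come from both ends of the range of levels (40 to 11 bases before the start, TATAAA in capitals): an abundant chaperone gene, an abundant foldase gene and 2 hormone genes listed at 0.
CALR: ggcgggtgggTATAAAagtgcaaggcgggc
PPIA: cgaacgtggTATAAAaggggcgggaggcca
INS: gctctgagacTATAAAgccagcgggggccc
GCG: ctggagagtaTATAAAagcagtgcgccttg
They lie at chr19:12938569-12938598 (plus) for the endoplasmic reticulum chaperone CALR, chr7:44796641-44796670 (plus) for the prolyl isomerase PPIA, chr11:2161220-2161249 (minus) for insulin (INS) and chr2:162152258-162152287 (minus) for glucagon (GCG). No match in such a window says only that these letters are not in it.

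**Figure D3:**
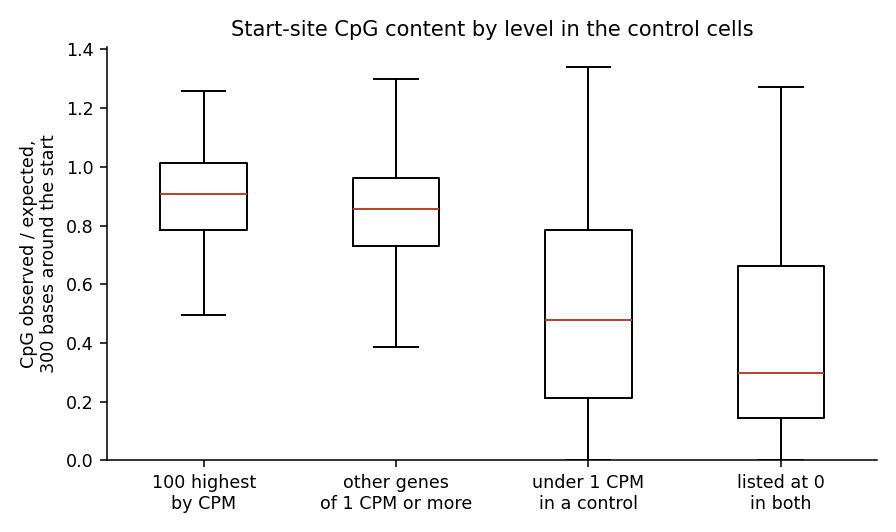
Ratio of observed to expected CpG in the 300 bases around the annotated start (y axis) for 4 classes of protein coding genes with a single start window, by level in the controls. Boxes are quartiles, red lines medians and whiskers reach 1.5 times the interquartile range at most; the medians fall from 0.907 and 0.856 to 0.479 and 0.297.

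The markers of the line were all expressed. VIM, the intermediate filament of mesenchymal cells (chr10:17228259-17237593, plus strand), stood at 1785 and 1754 CPM, and 24.4% of its exonic bases are shared with a gene on the opposite strand. CD44, a hyaluronan receptor used as a marker of mesenchymal and stem-like breast cancer cells (chr11:35138870-35232402, plus strand), stood at 602 and 584 CPM. EGFR, the epidermal growth factor receptor (chr7:55019021-55211628, plus strand), stood at 202 and 200.5 CPM. Per kilobase the order was VIM at 343 ± 4.26 CPM per kb, CD44 at 59.3 ± 1.26 CPM per kb and EGFR at 16.1 ± 0.107 CPM per kb (SD, n = 2), with no overlap between neighbours. ESR1, the estrogen receptor, stood at 0 and 0.1001 CPM, and PGR, the progesterone receptor, was listed at 0. ERBB2 was expressed at 134 and 125 CPM. It stood below EGFR per kilobase of merged exons, at 12.5 against 16.1 CPM per kb, and above it per kilobase of the longest transcript, at 26.3 against 20.5 CPM per kb. Receptor levels therefore matched the label of triple-negative cells for ESR1 and PGR, while amplification of ERBB2 cannot be read from RNA.

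Luminal genes were divided by role: all of its keratins were expressed, and so were 5 of its 10 transcription factors. Of the luminal list 19 of 30 were expressed, close to the 64.7% of all protein coding genes. In bulk libraries a gene expressed weakly in all cells and one expressed strongly in few cells cannot be told apart. The 4 keratins of simple epithelium, which form the filaments of glandular cells, were all expressed. KRT8 stood at 1201 and 1151 CPM. Its usual partner KRT18 stood at 343 and 347 CPM. KRT7, a keratin of ducts, stood at 952 and 857 CPM, and per kilobase it was first of the 4 at 221 ± 16.5 CPM per kb. KRT19, found in simple epithelia, stood at 458 and 431 CPM. In each of the 4 the replicates differed by less than 1.5-fold. CDH1, the epithelial cadherin, was near the limit at 2.15 and 1.501 CPM. EPCAM, an epithelial adhesion molecule, stood at 16.2 and 16.9 CPM. FOXA1, the pioneer factor of estrogen receptor binding, stood at 0.306 and 0 CPM, below 1 CPM in both. GATA3, a luminal factor, was expressed at 25.5 and 24.4 CPM. XBP1, a factor of the secretory pathway, stood at 49.6 and 47.4 CPM. EHF, an epithelial ETS factor, stood at 63.1 and 67.7 CPM. GRHL2, ELF5, TFAP2B and TBX3 were listed at 0.

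The basal and myoepithelial list was divided in another way, with 15 of 29 expressed, or 51.7% against 64.7% of all protein coding genes. Of its 11 adhesion and matrix genes 7 passed, and of its 7 keratins 1. The keratin that passed was KRT15, at 1.94 and 2.402 CPM, and KRT5, KRT6A and KRT6B were listed at 0. TP63, the master factor of basal cells, stood at 0.817 and 0.5004 CPM. The adhesion and matrix genes that led per kilobase belong to hemidesmosomes, which anchor basal cells to the basement membrane. LAMB3, a chain of laminin-332, stood at 621 and 582 CPM. ITGB4, a subunit of its integrin receptor, stood at 521 and 469.8 CPM. ITGA6, the alpha chain paired with it, stood at 424 and 479 CPM, higher in replicate 2 where the other 2 were lower. FOXC1, a factor of basal-like breast cancer, stood at 33.1 and 33.6 CPM. Of the 6 contractile genes of myoepithelium 5 were expressed, among them MYLK, the myosin light chain kinase, at 175 and 166 CPM. The one below the limit was the calponin gene CNN1, at 0.409 and 0.801 CPM.

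The mesenchymal list had 31 of 41 expressed, or 75.6% against 64.7% of all protein coding genes, with a median of 46.2 CPM. This was the highest share among the 16 lineage lists plotted, whose members were chosen with earlier results of these data known. S100A4, a calcium-binding protein linked to motility, stood at 546 and 504 CPM and led per kilobase at 512 ± 28.5 CPM per kb. THBS1, an adhesive matrix glycoprotein, stood at 1709.5 and 1628 CPM. LOXL2, a collagen crosslinking oxidase, stood at 583 and 518 CPM, lower in replicate 2. FN1 and COL5A1, a fibrillar collagen chain at 679.5 and 571 CPM, were lower in replicate 2 as well, all within 1.5-fold. CAVIN1, a coat protein of caveolae, stood at 918 and 902 CPM. CAV1, the main caveolar protein, stood at 802 and 825 CPM. NT5E, the surface enzyme CD73 that makes adenosine, stood at 339.6 and 382 CPM. The transcription factors were selective, with 4 of 9 expressed. SNAI2 stood at 34.4 and 35.2 CPM. ZEB1 stood at 63.5 and 62.8 CPM. ZEB2 stood at 17.98 and 15.6 CPM. All 3 repress epithelial genes, as does SNAI1, which was low at 3.27 and 4.404 CPM. TWIST1, TWIST2 and FOXC2 were listed at 0, as were the surface protein gene THY1 and the matrix gene POSTN.

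Of the epithelial junction list 27 of 43 were expressed, or 62.8% against 64.7% of all protein coding genes. By role these were 9 of 18 claudins, 10 of 12 other tight junction genes and 8 of 13 regulators of splicing and polarity. CLDN4, a tight junction claudin, led the claudins per kilobase and stood at 104 and 101 CPM. TJP1, the scaffold ZO-1, stood at 149 and 145 CPM. PARD3, of the polarity complex, stood at 70.6 and 75.9 CPM. SPINT2, an inhibitor of epithelial surface proteases, stood at 203 and 198 CPM, the highest level per kilobase of the regulators. ESRP1, the epithelial splicing regulator, OVOL2, a repressor of mesenchymal genes, and RAB25, a trafficking GTPase, were listed at 0.

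Markers of other lineages were mostly below the limit, which 64.7% of all protein coding genes reached. The neuron list had the highest share among the non-breast lists, with 5 of 13 expressed, or 38.5%, and 3 at 2 CPM. The leukocyte list had 3 of 15 expressed, with a summed level of 18.9 and 14.8 CPM, and PTPRC, the pan-leukocyte CD45, stood at 0.511 and 0.801 CPM. At 0.5 CPM that count was 5 and at 1 CPM per kb it was 1. The fibroblast list had 4 of 14 expressed and summed to 177 and 158 CPM, most of it COL1A2, a collagen chain also in the mesenchymal list, at 119 and 104 CPM. The fibroblast markers THY1, TCF21 and TWIST2 were listed at 0. The endothelial list had 2 of 9 expressed and summed to 43.5 and 38.0 CPM, most of it EGFL7, a secreted vascular protein, at 40.05 and 35.4 CPM, and TIE1 and ERG were listed at 0. The hepatocyte list had 2 of 14 expressed and summed to 49.0 and 48.4 CPM, most of it SERPINA1, the alpha-1 antitrypsin gene, at 46.6 and 44.5 CPM. At 1 CPM per kb both of these counts were 1. None of the 10 erythroid genes and none of the 15 cancer-testis antigens were expressed, while at 0.5 CPM each list had 2. Single genes of further lineages passed the limit in lists that were mostly below it. The skeletal and heart muscle list had 4 of 14 expressed, the melanocyte list 2 of 8 and the adipocyte list 3 of 9. MYOD1, MYOG and DES of muscle, TYR and S100B of the melanocyte list, and ADIPOQ and LEP of the adipocyte list were listed at 0. TNNT1, the slow skeletal troponin T, stood at 76.6 and 74.2 CPM. MITF, the melanocyte factor, stood at 32.6 and 34.8 CPM. PPARG, the receptor of adipocyte differentiation, stood at 29.5 and 33.5 CPM. Whether such reads came from other cells was not tested.

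**Figure D4:**
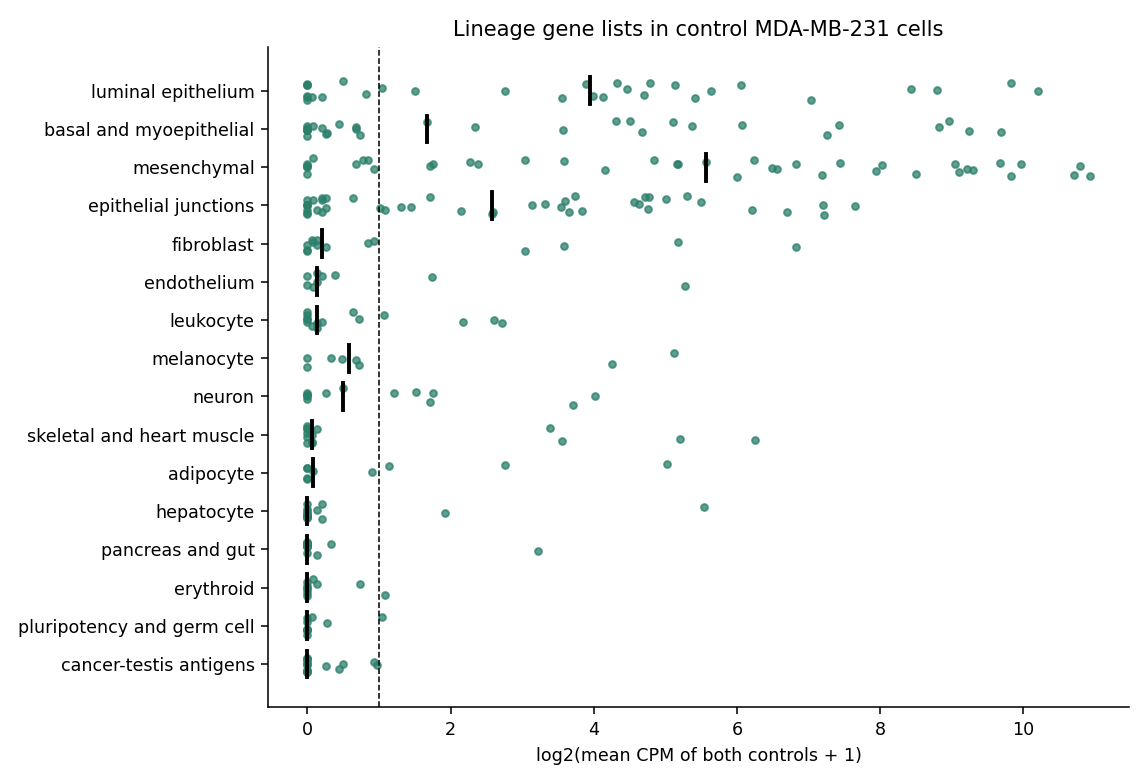
Level of each member of 16 lineage lists in the controls, as log2 of the mean CPM of both controls plus 1 (x axis), with each point 1 gene, a bar at the list's median and a dashed line at 1 CPM. The mesenchymal list has the rightmost median, 46.2 CPM, and the medians of the non-breast lists lie left of the dashed line.

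Receptor tyrosine kinases are the receptors through which growth factors start the RAS and PI3K pathways. Of the list 35 of 58 were expressed, or 60.3% against 64.7% of all protein coding genes, and AXL stood first. AXL, a TAM family receptor linked to invasion (chr19:41219203-41261766, plus strand), stood at 999 and 1008 CPM. Its level per kilobase of 195 ± 1.33 CPM per kb was 41.1% of the summed level of the expressed members. EPHA2, an ephrin receptor, was second at 102 ± 1.11 CPM per kb (SD, n = 2). MET, the hepatocyte growth factor receptor, followed at 22.3 ± 1.64 CPM per kb, ahead of EGFR. EPHB4, another ephrin receptor, came after EGFR at 14.5 ± 0.443 CPM per kb. By merged exon length each of these first 5 was clear of the next in both libraries. FGFR1 at 12.8 ± 0.985 CPM per kb, ERBB2 at 12.5 ± 0.625 CPM per kb, PTK7 at 11.7 ± 1.67 CPM per kb, DDR1 at 9.69 ± 1.17 CPM per kb, ROR1 at 9.34 ± 0.0673 CPM per kb and EPHA1 at 9.03 ± 0.504 CPM per kb followed, and each pair of neighbours among these 6 overlapped. Of 34 neighbouring pairs in the whole order, 17 overlapped. The places after EPHA2 depend on the length used. Per kilobase of the longest transcript FGFR1 at 28.4 CPM per kb and ERBB2 at 26.3 CPM per kb came before MET at 23.7 CPM per kb. DDR1 at 21.3 CPM per kb, EGFR at 20.5 CPM per kb, PTK7 at 19.98 CPM per kb and EPHB4 at 18.5 CPM per kb followed. The ephrin A receptors had 5 of 9 expressed, the TAM family all 3, and the neurotrophin and TIE families none. KDR, a VEGF receptor, stood at 2.55 and 2.102 CPM. FLT1, FLT4 and FGFR2 were listed at 0.

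**Figure D5:**
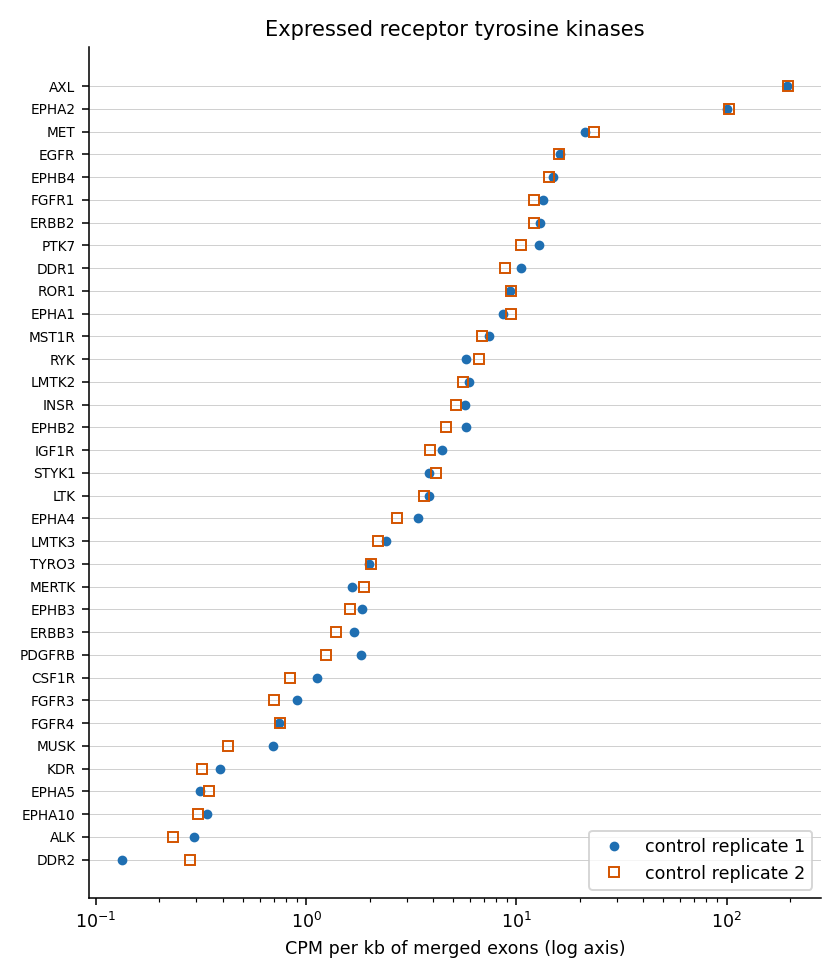
Level of the 35 expressed receptor tyrosine kinases in each control library, as CPM per kb of merged exons on a log axis, ordered by mean level. Circles are replicate 1 and squares are replicate 2; AXL and EPHA2 stand apart at 195 and 102 CPM per kb, and the replicates of DDR2, last in the order, lie farthest apart.

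Ligands of several of these receptors were expressed, with 36 of 60 of the growth factor list. This share was below the 64.7% of all protein coding genes. GAS6, the ligand of AXL, stood at 585 and 551 CPM. HGF, the ligand of MET, was listed at 0. HBEGF, a ligand of EGFR, stood at 85.6 and 89.3 CPM. TGFA, another, stood at 80.1 and 82.3 CPM. AREG, another EGFR ligand, stood at 17.3 and 16.6 CPM. Ligand and receptor were thus both expressed for AXL and for EGFR, and only the receptor for MET. BMP4, a ligand of the TGF-beta superfamily, stood at 384 and 357 CPM. TGFB1 stood at 156 and 151 CPM. TGFB2 stood at 258 and 255 CPM, and it shares exonic bases with another gene. Their type II receptor TGFBR2 was also expressed, at 206 and 189 CPM. CCN1, a matricellular protein, stood at 621 and 673 CPM. CCN2, its relative, stood at 153 and 169 CPM. PDGFC stood at 139 and 134 CPM. Of 13 FGF family ligands 2 were expressed.

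Cytokine receptors of the IL6 family, which signal through STAT3, were the most complete of the cytokine receptors, with 6 of 7 expressed. Class I cytokine receptors outside that family were the least complete, with 8 of 18. The whole cytokine receptor list had 27 of 45 expressed, a share below the 64.7% of all protein coding genes. OSMR, the oncostatin M receptor, stood at 204 and 192 CPM. IL6ST, the shared subunit gp130, stood at 222 and 222 CPM. The replicates differed little for either. The IL6 family ligand LIF stood at 35.4 and 40.04 CPM. IL11 stood at 34.2 and 39.3 CPM. CXCL8, a neutrophil chemokine, stood at 7.97 and 7.91 CPM. The TNF receptor superfamily had 20 of 29 expressed, or 69.0% against 64.7% of all protein coding genes. All 7 of its death receptors were expressed, and TNFRSF21 led them per kilobase from 309 and 279.6 CPM. TNFRSF1A, the main TNF receptor, stood at 139.8 and 132 CPM. Of 19 chemokine receptors 4 were expressed. CXCR4, which guides cells toward CXCL12, stood at 4.699 and 6.31 CPM. CXCR5 stood at 69.98 and 68.6 CPM and shares exonic bases with another gene, so its reads are uncertain. F2RL1, a protease-activated receptor, stood at 140.3 and 149 CPM. F2R, the thrombin receptor, stood at 89.5 and 88.5 CPM. All the G protein-coupled receptors together had 30 of 66 expressed, or 45.5% against 64.7% of all protein coding genes. At 1 CPM per kb the count was 18.

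Of the nuclear receptors, many of them transcription factors controlled by ligands, 29 of 47 were expressed. This was 61.7%, against 64.7% of all protein coding genes, and included 3 of 6 steroid receptors. NR3C1, the glucocorticoid receptor, stood at 186 and 193 CPM. The second estrogen receptor, ESR2, stood at 1.53 and 2.302 CPM. Of the steroid receptors NR3C1 was thus first per kilobase at 20.6 ± 0.559 CPM per kb, followed by the mineralocorticoid receptor NR3C2 at 0.8505 ± 0.153 CPM per kb. NR2F2, the orphan factor COUP-TFII, stood at 316 and 322 CPM and led the whole list per kilobase at 49.4 ± 0.737 CPM per kb. PPARD, a fatty acid sensor, stood at 103 and 108 CPM. ESRRA, an orphan relative of the estrogen receptor that controls mitochondrial genes, stood at 74.98 and 79.2 CPM.

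Developmental signalling pathways were present in part. NOTCH2, a Notch receptor, stood at 627 and 606 CPM. Its ligand JAG1 stood at 118 and 102 CPM. The target gene HES1 stood at 11.1 and 10.5 CPM. NOTCH4 was listed at 0, and 2 of 7 Notch targets were expressed. The Notch list had 7 of 16 expressed, or 43.8% against 64.7% of all protein coding genes. In the WNT pathway the secreted inhibitor DKK1 stood at 488 and 504 CPM. The coreceptor LRP5 stood at 300.4 and 268 CPM. The ligand WNT7B stood at 46.1 and 45.7 CPM. The WNT list had 24 of 47 expressed, or 51.1% against 64.7% of all protein coding genes. Of 7 WNT targets 5 were expressed. AXIN2 stood at 6.64 and 5.005 CPM and shares exonic bases with another gene, and LEF1 stood at 1.02 and 2.402 CPM. In the Hedgehog pathway the receptor PTCH1 stood at 36.8 and 27.1 CPM. The effector GLI2 stood at 27.99 and 22.02 CPM. SMO, the transducer between them, was listed at 0. The Hedgehog list had 5 of 9 expressed, or 55.6% against 64.7% of all protein coding genes, and 3 at 1 CPM per kb.

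Of the AP-1 list 16 of 19 were expressed, or 84.2% against 64.7% of all protein coding genes, and within the FOS proteins the FOSL genes stood far above FOS. FOSL1 stood at 119 and 137 CPM. FOSL2 stood at 422 and 422 CPM. FOS itself stood at 2.04 and 1.501 CPM. Per kilobase the levels were 67.8 ± 6.49 CPM per kb, 58.9 ± 0.0222 CPM per kb and 0.547 ± 0.118 CPM per kb. Their partners of the JUN family were all 3 expressed, with JUND at 222 and 199.6 CPM and JUN at 187 and 198 CPM. YAP1, the coactivator of TEAD factors that senses cell contact, stood at 326 and 326 CPM. TEAD1 stood at 324 and 341 CPM. All 6 genes of that group, all 7 STAT genes and all 5 NF-kB genes were expressed. MYC, a factor of growth, stood at 122 and 123 CPM. KLF6 led the KLF and SP family per kilobase from 242 and 241 CPM, and 18 of 20 (90.0%) were expressed. Of the ETS family 19 of 27 were expressed, or 70.4%. ETS1, a factor of invasive cells, stood at 157 and 174 CPM. The blood and endothelial ETS factors SPI1 and ERG were listed at 0.

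Factors that specify body position and germ layers were mostly below the limit. Of 39 HOX genes 6 were expressed, a share below the 64.7% of protein coding genes, and the count was 3 at 2 CPM and 1 at 1 CPM per kb. HOXB9 led per kilobase from 6.23 and 7.11 CPM. HOXB3 stood at 4.29 and 3.703 CPM. HOXA13 stood at 3.17 and 3.003 CPM. HOXA13 was the only expressed member of its cluster, in which the other 10 were listed at 0, and no HOXC gene was expressed. Of the SOX family 6 of 19 (31.6%) were expressed, led per kilobase by SOX9, a factor of stem and progenitor cells, at 146 and 128 CPM. GATA6, an endoderm factor, stood at 51.1 and 44.6 CPM.

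Integrins, the receptors for matrix, had 16 of 26 expressed, or 61.5% against 64.7% of all protein coding genes. ITGB1, the common beta chain, stood at 1048 and 1092 CPM. ITGA3, a laminin-binding alpha chain, stood at 1582 and 1466 CPM. Their levels per kilobase were 178 ± 5.18 CPM per kb and 155 ± 8.42 CPM per kb. HLA-B, a class I antigen-presenting molecule, stood at 536 and 521 CPM. B2M, its light chain, stood at 728 and 718 CPM. The HLA genes are so alike that the division of reads between them is uncertain. CD74, the invariant chain of class II molecules, stood at 258 and 221 CPM, and 8 of 10 class II genes were expressed. PVR, a ligand of immune checkpoint receptors, stood at 142 and 139 CPM.

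All 11 RAS pathway genes were expressed, against 64.7% of all protein coding genes. DUSP4, a phosphatase induced by ERK as feedback, stood at 441 and 426 CPM. DUSP6, another, stood at 242 and 239 CPM and shares exonic bases with another gene. HRAS stood at 80.1 and 78.1 CPM. The feedback phosphatases were thus expressed beside the RAS genes themselves. CCND1, the cyclin of the G1 phase, stood at 737 and 701 CPM. CDKN1A, the inhibitor p21, stood at 176 and 154 CPM. CDKN2A, CDKN2B and MTAP were listed at 0.

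Of a list of genes linked to lung and bone metastasis, some of them first studied in this line, 23 of 26 were expressed. This was 88.5%, against 64.7% of all protein coding genes, and the median of the list was 9.03 CPM. Its members were chosen with earlier results of these data known. ID1, an inhibitor of differentiation factors, stood at 153 and 121 CPM. COL6A1, a collagen chain, stood at 185 and 162 CPM. FSCN1, which bundles actin in protrusions, stood at 95.8 and 82.6 CPM. All 3 were lower in replicate 2, within 1.5-fold. The collagenase MMP1 stood at 14.3 and 18.1 CPM. The gelatinase MMP2 stood at 0.306 and 0.4004 CPM, and the decoy receptor gene IL13RA2 was listed at 0. Of the long noncoding RNAs 16 of 24 were expressed, or 66.7% against 36.5% of all genes with a symbol of their own. The latter share includes protein coding genes, and a share for noncoding genes alone is not given here. NEAT1, the scaffold of paraspeckles, stood at 1699 and 1522 CPM. MALAT1, of nuclear speckles, stood at 609 and 576 CPM. NORAD, which binds PUMILIO proteins, stood at 499.5 and 492 CPM and led per kilobase. HOTAIR and MEG3 were listed at 0. NECTIN4, a surface protein targeted by antibodies, was listed at 0.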

How the data were processed

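The 2 control libraries are mRNA libraries made by random priming from RNA cleared of DNA by DNase, as the labels' protocols state. The submitters' processing notes name Trim Galore, HISAT2 and the builds hg38 and mm10, with no versions or roles. The deposited values are CPM, scaled by the authors to library size; how reads were counted, on which annotation and with what use of strand is not given in the sources used here. Within 1e-06, each value was a whole multiple of 1 step per library, and these implied reads were used only to describe depth and to set the controls against counting noise; no count test was run.

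Of 52142 rows, 15200 without a symbol (2.52% and 2.50% of CPM) and 10 sharing 5 symbols were left out. Lengths and positions came from GENCODE 29 on GRCh38, in which 36882 of 36932 genes matched. Genes were called expressed at 1 CPM in each control. Differences between the controls used log2(CPM + 1), a mean of at least 1 CPM and 1.5-fold; the pseudocount makes changes of low genes smaller. The calculation was tested on simulated data. CpG and start-site letters came from RefSeq (GRCh38.p14). Analysis used Python 3.11.15, pandas 2.3.3 and numpy 2.4.6.

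The 53 gene lists hold 1245 distinct genes, of which 9 had no row and are not analysed here. Members and lists were chosen with earlier results of these data known. Named genes are VIM, CD44 and EGFR, the 25 of highest CPM, the 10 of highest CPM per kb, up to 3 expressed members of highest CPM per kb in each role of each list with examples at 0 or below 1 CPM, and up to 10 genes of at least 20 CPM that differed most between the controls. Outside this rule, chosen after their values were seen, are CDH1, RPLP0, KRT18, COL5A1, ZEB2, LEF1 and MMP1. Some genes that the rule takes are not reported here. Alternatives were other levels, length scalings, pseudocounts and filters, and each control alone. No pairing by replicate number was used.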

Additional observations from a re-analysis of the deposited data

How the results depend on the processing

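The levels of VIM, CD44 and EGFR in CPM stayed within 1 SD after median centring. Either of 2 libraries alone always lies within 1 SD of their mean, so leaving out a control cannot test these levels. The count of expressed genes and the total of list members expressed stayed within 1.5 times under the alternatives run for each. Among these, levels of 0.5 and 2 CPM gave 14433 and 12517 expressed genes, and 1 CPM per kb gave 11926. With either control alone the count of expressed genes was 13793 to 13809. The share of CPM in the 10 most abundant genes was 3.81% without the mitochondrial genome and 16.03% on the level per kb, and the share in the top 100 was 13.9% and 33.5%; with either control alone the shares were 5.62% to 5.70% and 16.8% to 17.0%. On either length scaling 14 of the first 25 genes remained, and with either control alone 24. The count of genes past 1.5-fold between the controls was 747 with no filter, 32 at a mean of 10 CPM, 861 with a pseudocount of 0.1 CPM and 23 at 2-fold; median centring gave 413. Leaving out a control is not possible for that count. Of the first 10 receptor tyrosine kinases 9 or 10 remained under each alternative, but per kb of the longest transcript in place of merged exons FGFR1 went from 12.8 to 28.4, ERBB2 from 12.5 to 26.3, DDR1 from 9.69 to 21.3 and PTK7 from 11.7 to 19.98 CPM per kb, and the places from MET on changed. Of 53 lists, 3 moved by over 1.5 times at 0.5 CPM, 3 at 2 CPM and 9 at 1 CPM per kb. Leaving out genes that share 20% or more of their exonic bases with another gene, an alternative chosen after seeing the data, moved 2 lists and gave 726 expressed members in place of 789. No paired analysis was possible because no groups were compared and no test was run. Depth limits genes under 1 CPM, about 10 reads, most.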

Other observations

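The cell cycle inhibitor genes CDKN2A and CDKN2B lie in a stretch of chromosome 9 in which many neighbours were listed at 0 in both controls. This stretch was chosen after its values were seen. In the order of gene starts, 46 neighbouring genes from SNORA30B to LINC01239 (chr9:20786927-22824213, GENCODE 29 on GRCh38) were listed at 0, of which 22 are protein coding and 6 of those lie outside the interferon family. These 6 are HACD4, of fatty acid elongation, KLHL9, a ubiquitin ligase adaptor, MTAP, of methionine salvage, CDKN2A, CDKN2B and DMRTA1. The host gene of miR-31, MIR31HG, was also listed at 0. SNORA30B lies inside the expressed gene FOCAD (chr9:20658309-20995955), so the start of this interval overlaps FOCAD. HACD4, from 20999515, is the first gene at 0 beyond the end of FOCAD. On one side, among genes of 1 CPM or more, FOCAD stood at 7.66 and 5.305 CPM and MLLT3 at 20.4 and 21.1 CPM, and farther out the ribosomal protein gene RPS6 stood at 498 and 520.4 CPM. Between MLLT3 and RPS6, ACER2 stood at 0.817 and 0.4004 CPM and SLC24A2 at 0.204 and 0.2002 CPM. On the other side the run ends only at the pseudogene CLIC4P1, at 0.204 and 0 CPM, beyond which ELAVL2 and IZUMO3 were listed at 0, so that edge rests on the few reads of a pseudogene. Ordered by gene count, 11 runs of 0 elsewhere were longer, among them clusters of olfactory receptor genes and immunoglobulin segments. MDA-MB-231 is known for loss of CDKN2A, but DNA was not measured here and the cause of these zeros was not tested.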
